A study of Mus musculus with 15 samples.

Results

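The genes of 3 families that act on the extracellular matrix were followed: the matrix metalloproteases (Mmp), the ADAMTS proteases (Adamts) and the tissue inhibitors of metalloproteases (Timp). They were chosen by symbol alone, as every mouse gene named Mmp, Adamts or Timp with a number, without Mmp8. Of 45 such genes in the RefSeq table of mouse genes, 44 had a probe on the arrays, 21 Mmp, 19 Adamts and 4 Timp genes, among 37119 genes and unnamed transcripts in all. RNA came from dissected mammary tumours of female MMTV-PyMT mice, a model in which a mammary promoter drives a viral oncogene in the gland and carcinomas arise there without grafting. The T0 group held 4 tumours sampled with no treatment given. At the end of treatment there were 3 tumours given vehicle, 4 given B20 and 4 given nintedanib. Dosing began at 7 weeks of age. B20 (B20-4.1.1), an antibody that binds VEGF, was injected into the peritoneum at 5 mg/kg, 2 times per week, and nintedanib, an inhibitor of the VEGF, PDGF and FGF receptor kinases, was given by gavage at 85 mg/kg per day. The labels give no age for the T0 mice or for the end of treatment, and leave unsaid whether each sample is another mouse, so the p-values here rest on spread among samples that may be technical.

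Matrix metalloproteases are zinc enzymes that cut collagens, laminins and other matrix proteins, and most are made as inactive precursors that another protease must cut. ADAMTS enzymes are secreted relatives with thrombospondin repeats that bind them to matrix, where they trim proteoglycans such as versican and aggrecan or process procollagen. TIMPs occupy the active site of metalloproteases, and Timp3 also inhibits several ADAMTS enzymes. In mammary tumours such proteases are known from fibroblasts, macrophages, endothelium, adipocytes and the tumour cells themselves, and arrays of whole tumour measure RNA of all of them together, so that fewer cells of a type and less RNA per cell cannot be told apart.

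Levels are log2 spot signals minus the 75th percentile of their array, so a level of 0 is as bright as that percentile, and all differences are in log2. Between 53.4% and 68.1% of probes were well above background on 14 arrays and 84.1% on T0 replicate 3, where 41 of the 44 genes were so, against 28 to 35 on the other arrays. T0 replicate 4 carries 2 treatment labels, vehicle and before any treatment, and counts here as T0, following its title. The T0 arrays were read on 2 slides of their own with another extraction protocol of the scanner software, whereas the 3 groups at the end of treatment shared a slide of 8 arrays and a slide of 3, so slide and group cannot be told apart in any comparison with T0. T0 replicates 1 and 2 lay on 1 of the 2 T0 slides and replicates 3 and 4 on the other. The tissue label was checked on luminal epithelial markers, all 10 of which were well above background on all 15 arrays, with a summed level (log2) of 9.34 to 9.78 in T0 and 9.26 to 9.66 at the end of treatment, and 1 of the 10, Elf5, was called lower against T0 with nintedanib. Markers of adipocytes, all 8 of them, had a summed level of 8.74 to 10.61 in T0, 3.76 to 6.05 with vehicle, 5.50 to 7.73 with B20 and 5.35 to 8.19 with nintedanib.

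Of the 44 genes, 37 were well above background on at least 3 arrays and entered the tests (16 Mmp, 17 Adamts and 4 Timp genes), and 23 were so on all 15. The proteoglycan-cleaving ADAMTS genes were the group with most such genes: Adamts1, Adamts4, Adamts5, Adamts8, Adamts9 and Adamts15 on every array, and Adamts20 on none. Of the collagenase genes Mmp13 entered the tests, whereas Mmp1a was on no array and Mmp1b on 2, T0 replicates 2 and 3. Adamts13, which cuts von Willebrand factor, and Mmp21 and Mmp20, the last known as the protease of tooth enamel, were each seen on 1 array, and Mmp28 on 2. T0 replicate 3, with 84.1% of all probes well above background, was among the arrays for Mmp1b, Adamts13, Mmp21 and Mmp28. All 6 genes of the membrane-type group (Mmp14, Mmp15, Mmp16, Mmp17, Mmp24 and Mmp25) entered the tests. Of these Mmp14, Mmp15 and Mmp17 were on every array.

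The tumours at the end of treatment were first set against T0. With vehicle, limma called 2 of the 37 genes at an adjusted p under 0.05 (5.41%), Adamts5 and Adamts19, both lower, where 4.93% of the 28025 genes and transcripts tested were called, at p-values adjusted over all of them. With nintedanib it called 6 of 37 (16.2%, against 11.4% of all): Mmp13 and Adamts10 rose, and Adamts5, Adamts9, Adamts18 and Adamts19 fell. With B20 it called 7 of 37 (18.9%, against 9.52% of all): Mmp13 rose, and Adamts5, Adamts9, Adamts17, Adamts18, Adamts19 and Mmp19 fell. These counts include Adamts19, which passed the filter on dim probes through T0 arrays only and was thereby favoured for a call against T0. Without it, 1 of 36 genes was called with vehicle (2.78%), 5 with nintedanib (13.9%) and 6 with B20 (16.7%), of which 1, 3 and 5 were lower (2.78%, 8.33% and 13.9%). In the lower direction alone and with Adamts19, 6 of the 37 were called with B20 (16.2%, against 3.73% of all), 4 with nintedanib (10.8%, against 4.62%) and 2 with vehicle (5.41%, against 2.13%). In the higher direction 1 was called with B20 (2.70%, against 5.79%), 2 with nintedanib (5.41%, against 6.82%) and 0 with vehicle (against 2.80%). Medians over the 37 genes were 0.09, 0.05 and -0.22 for vehicle, nintedanib and B20, and those over all genes tested 0.04, 0.01 and 0.08. The 3 comparisons share the T0 arrays and are no independent repeats of each other.

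Mmp13, collagenase 3, is the main collagenase of rodents and cuts fibrillar collagen. On the T0 arrays it stood at -5.19, -4.76, -3.26 and -2.60, the first of them not well above background. With vehicle it stood at -0.71, -2.28 and -1.90. Its levels were -0.49, -0.04, -0.43 and -1.44 with B20 and -1.08, -0.01, -1.65 and -3.16 with nintedanib. Every vehicle and B20 array lay above every T0 array, while nintedanib replicate 4 lay below T0 replicate 4. The difference from T0 was 3.35 ± 0.68 with B20 (SE of the fit; 10.2-fold, adjusted p = 0.0128), 2.48 ± 0.68 with nintedanib (5.57-fold, adjusted p = 0.0336) and 2.33 ± 0.73 with vehicle (adjusted p = 0.0837). The B20 call held under all 12 other settings and all 15 leave-outs, at 1.78 with normexp background correction and 1.82 with the authors' deposited log2 values. That of nintedanib ended without T0 replicates 1 or 2 or nintedanib replicates 1, 2 or 3 (adjusted p = 0.0611 to 0.0974) and under 5 of 12 other settings (adjusted p = 0.0526 to 0.099), among them normexp at 1.18 and the authors' values at 1.24.

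**Figure D1:**
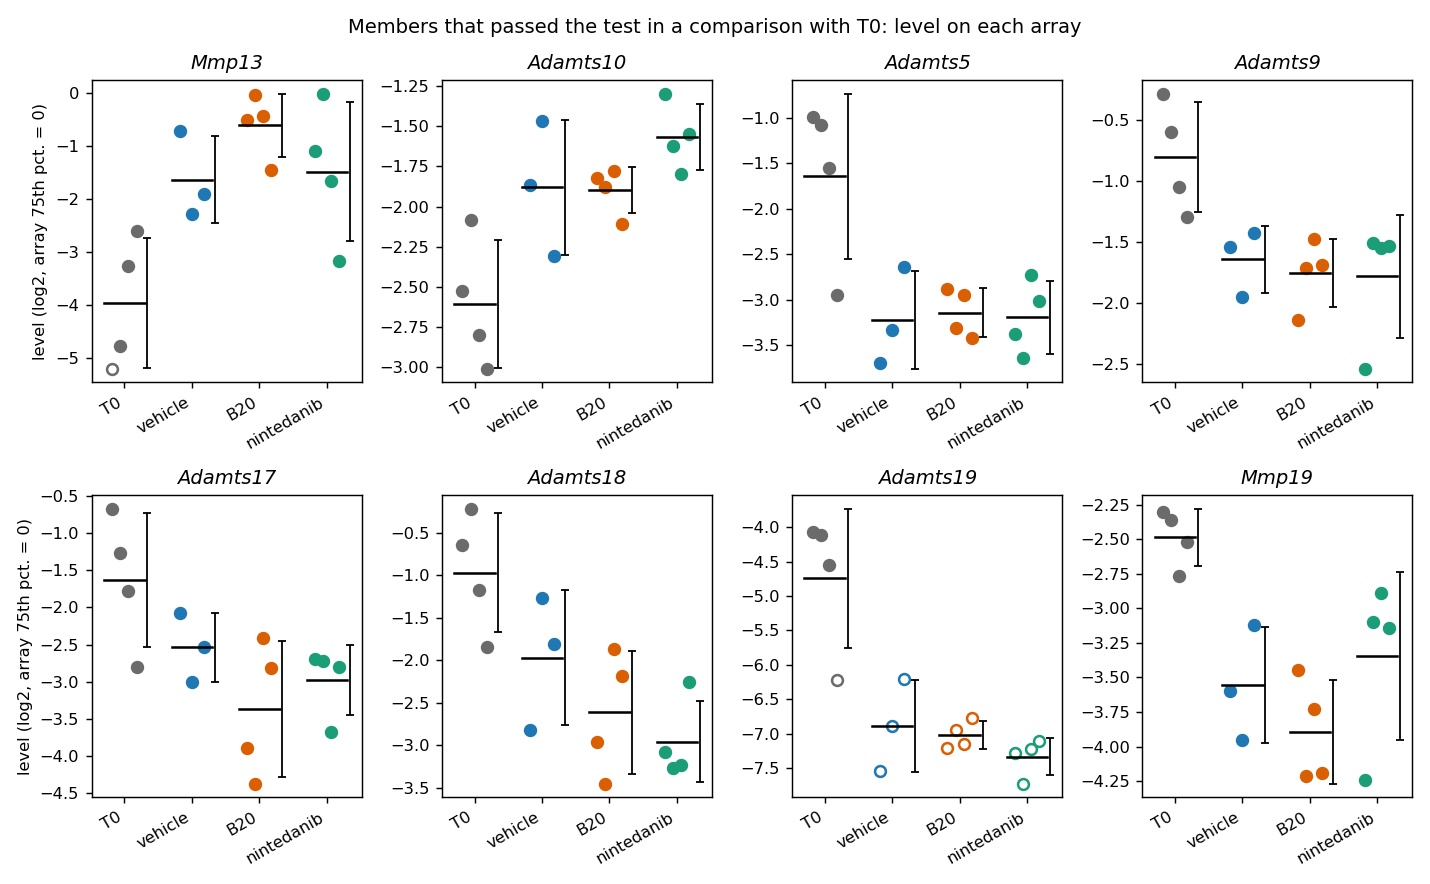
Levels (log2, relative to the array's 75th percentile) on each of the 15 arrays of the 8 genes called in a comparison with T0. Points are arrays, open where the probe was not well above background, horizontal lines are group means and bars SDs. Mmp13 and Adamts10 were higher at the end of treatment, the other 6 lower, and T0 replicate 4, the last T0 point, lay nearest to the later arrays for Adamts5, Adamts9, Adamts17, Adamts18, Adamts19 and Mmp13.

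Mmp13 opens a run of 10 neighbouring Mmp genes on chromosome 9, in the order Mmp13, Mmp12, Mmp1b, Mmp3, Mmp1a, Mmp10, Mmp8, Mmp27, Mmp20 and Mmp7, which holds collagenases, stromelysins, matrilysin and macrophage elastase. RefSeq promoters (GRCm38.p6, 250 bases before to 50 after the start) were found for 30 of the 44 genes. They were searched on both strands for TATAAA and for TGANTCA, called the AP-1 motif here, where N is any base. This pattern is wider than the usual AP-1 site, which has C or G at N. Each of the 8 genes of the run with a promoter in the table held both motifs, whereas of the 22 other genes 0 held the AP-1 motif and 2, Adamts1 and Mmp21, held TATAAA. The match in Mmp20 was TGAATCA, with A at N, and those in the other genes of the run had C or G. Counted per promoter, the AP-1 motif was in 7.81% and TATAAA in 13.6% of all 32851 listed. Of the 33 promoters of the members they were in 24.2% and 30.3%. The GC content was 37.7% to 52.0% in the run and 53.3% to 80.0% in the other genes. The value of 52.0% belongs to the second start of Mmp7, which held neither motif. The promoters of the 5 genes of the run that entered the tests are shown, since the motif was found in no member outside the run. All lie on the plus strand, at chr9:7272264-7272563 for Mmp13, chr9:7347124-7347423 for Mmp12 (the second of its 2 starts in the table, the other without the motif), chr9:7445572-7445871 for Mmp3, chr9:7502092-7502391 for Mmp10 and chr9:7691840-7692139 for Mmp7 (the first of 2 starts). For contrast the promoter of Adamts18 follows, at chr8:113848790-113849089 on the minus strand, with neither motif. Capitals mark the AP-1 motif, which began 35 to 63 bases before the start in these 5 genes, and all sequences run 5′ to 3′.
Mmp13: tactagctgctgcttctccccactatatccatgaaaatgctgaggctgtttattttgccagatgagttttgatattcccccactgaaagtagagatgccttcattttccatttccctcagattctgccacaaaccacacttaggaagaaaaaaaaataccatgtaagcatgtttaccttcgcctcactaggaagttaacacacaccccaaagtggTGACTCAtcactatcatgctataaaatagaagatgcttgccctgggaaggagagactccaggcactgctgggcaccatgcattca
Mmp12: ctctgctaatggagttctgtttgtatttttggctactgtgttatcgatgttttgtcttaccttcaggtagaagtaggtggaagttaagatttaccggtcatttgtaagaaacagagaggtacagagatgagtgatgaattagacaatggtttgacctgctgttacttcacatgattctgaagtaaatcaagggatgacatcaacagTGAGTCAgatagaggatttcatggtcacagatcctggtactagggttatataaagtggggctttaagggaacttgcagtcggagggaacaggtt
Mmp3: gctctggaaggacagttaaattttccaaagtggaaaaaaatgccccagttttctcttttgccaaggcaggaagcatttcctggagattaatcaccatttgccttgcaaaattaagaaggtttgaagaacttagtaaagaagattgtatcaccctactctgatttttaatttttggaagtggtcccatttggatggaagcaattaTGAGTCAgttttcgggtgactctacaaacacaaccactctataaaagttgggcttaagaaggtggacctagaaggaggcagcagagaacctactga
Mmp10: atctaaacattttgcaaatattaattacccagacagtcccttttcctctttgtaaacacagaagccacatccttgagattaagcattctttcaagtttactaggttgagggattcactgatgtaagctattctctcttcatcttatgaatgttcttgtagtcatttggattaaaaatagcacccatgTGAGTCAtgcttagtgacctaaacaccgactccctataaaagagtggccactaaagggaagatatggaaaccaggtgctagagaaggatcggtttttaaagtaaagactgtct
Mmp7: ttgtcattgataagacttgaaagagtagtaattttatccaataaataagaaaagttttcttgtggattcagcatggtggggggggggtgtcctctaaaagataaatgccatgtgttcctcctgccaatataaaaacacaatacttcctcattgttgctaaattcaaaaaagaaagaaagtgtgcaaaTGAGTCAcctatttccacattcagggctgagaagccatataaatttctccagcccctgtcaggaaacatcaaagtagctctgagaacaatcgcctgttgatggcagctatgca
Adamts18: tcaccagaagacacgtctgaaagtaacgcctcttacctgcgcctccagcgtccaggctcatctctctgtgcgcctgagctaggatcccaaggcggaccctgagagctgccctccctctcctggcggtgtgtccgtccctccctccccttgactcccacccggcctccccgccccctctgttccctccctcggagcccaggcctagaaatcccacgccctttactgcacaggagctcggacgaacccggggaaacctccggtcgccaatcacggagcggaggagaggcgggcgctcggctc

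The other tested genes of the run were not called against T0, and their motif is a match of letters only. Mmp12, macrophage elastase, stood at -5.09, -5.55, -3.61 and -3.15 in T0, where the first 2 arrays were not well above background. At the end of treatment it stood at -3.21, -2.99 and -3.80 with vehicle, -2.53, -2.32, -3.11 and -3.73 with B20 and -4.16, -3.37, -3.48 and -4.92 with nintedanib, the last of them not well above background. All 4 groups overlapped, and the difference was 1.42 ± 0.52 with B20 (adjusted p = 0.103). Mmp10 (stromelysin 2) differed from T0 by 1.42, 1.95 and 1.60 with vehicle, nintedanib and B20, and Mmp7 (matrilysin, a small protease of epithelia) by 1.03, 0.24 and 1.42 (adjusted p = 0.139 to 0.863). Of the 4 T0 arrays, Mmp10 was well above background on 1 and Mmp7 on 2, so these sizes are uncertain, and with normexp they were 0.18, 0.32 and 0.36 for Mmp10 and 0.22, -0.21 and 0.51 for Mmp7. Mmp3 (stromelysin 1), which can activate other Mmp precursors, differed by -0.27, 0.57 and 0.32. With T0 replicates 3 and 4 left out, a setting added after the data were seen, Mmp12 and Mmp7 were called higher with vehicle and B20, but the 2 T0 arrays then left share a slide and neither gene was well above background on them.

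Among the proteoglycan-cleaving ADAMTS genes, Adamts5 and Adamts9 were called lower and the other 4 tested were not called. Adamts5, a major aggrecanase, stood at -0.99, -1.07, -1.55 and -2.95 in T0 and at -3.69, -3.34 and -2.64 with vehicle. It stood at -2.88, -3.32, -2.95 and -3.43 with B20 and -3.38, -3.65, -2.73 and -3.01 with nintedanib. T0 replicates 1 to 3 lay above all 11 later arrays and T0 replicate 4 among them. The differences were -1.58 ± 0.42 with vehicle (adjusted p = 0.0469), -1.55 ± 0.39 with nintedanib (0.0228) and -1.50 ± 0.39 with B20 (0.0301), and its second probe gave -1.22, -0.90 and -1.57. The vehicle call ended in 14 of 15 leave-outs, all but T0 replicate 4 (adjusted p = 0.0564 to 0.153). The nintedanib call ended without T0 replicates 1 or 2 or nintedanib replicates 1 or 2 (adjusted p = 0.0614 to 0.0697), and the B20 call without T0 replicates 1 or 2 or B20 replicates 2, 3 or 4 (adjusted p = 0.0508 to 0.0908). Of 12 other settings, 5, 2 and 3 ended the 3 calls (adjusted p = 0.0557 to 0.210), and with the authors' values the differences were -0.91, -0.89 and -0.87.

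Adamts9, which cuts versican and aggrecan, stood at -0.28, -0.60, -1.04 and -1.29 in T0. Its later levels were -1.54, -1.96 and -1.43 with vehicle, -2.14, -1.71, -1.48 and -1.68 with B20 and -2.54, -1.51, -1.55 and -1.53 with nintedanib. Every later array lay below every T0 array. It differed by -0.98 ± 0.28 with nintedanib (adjusted p = 0.0375), -0.95 ± 0.28 with B20 (0.047) and -0.84 ± 0.30 with vehicle (0.121). The nintedanib call ended without T0 replicates 1 or 2 or any of the 4 nintedanib arrays (adjusted p = 0.0504 to 0.107) and under 5 of 12 other settings (adjusted p = 0.0554 to 0.131). The B20 call held only without T0 replicates 3 or 4 or nintedanib replicate 1 (in the other 12 leave-outs adjusted p = 0.0544 to 0.131) and ended under 7 of 12 other settings (adjusted p = 0.0512 to 0.16). Adamts1, Adamts4, Adamts8 and Adamts15 differed from T0 by -0.03 to 0.80 over the 3 comparisons, with none called. For Adamts8 the 2 probes, both well above background on all 15 arrays, had opposite signs. The probe used gave 0.56, 0.25 and 0.08 with vehicle, nintedanib and B20, and its second probe -0.43, -0.42 and -0.25.

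Of the less studied ADAMTS genes 4 were called. Adamts18, whose substrates are little known, stood at -0.65, -0.22, -1.18 and -1.84 in T0 and -2.83, -1.27 and -1.81 with vehicle. With B20 it stood at -2.96, -3.45, -1.87 and -2.19 and with nintedanib at -3.08, -3.27, -3.24 and -2.26. All B20 and nintedanib arrays lay below all T0 arrays, and 2 of the 3 vehicle arrays lay within the T0 range. The difference was -1.99 ± 0.44 with nintedanib (3.97-fold lower, adjusted p = 0.014), -1.64 ± 0.44 with B20 (3.13-fold lower, adjusted p = 0.035) and -0.998 ± 0.48 with vehicle (adjusted p = 0.252). The nintedanib call held under all 12 other settings and all 15 leave-outs (-1.21 with the authors' values and -1.30 with normexp), and the B20 call ended without T0 replicates 1 or 2 or B20 replicates 1, 2 or 4 (adjusted p = 0.0626 to 0.0967) and under 5 other settings (adjusted p = 0.0502 to 0.0805).

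Adamts17, linked in humans to a short-stature and lens syndrome, stood at -0.67, -1.27, -1.78 and -2.79 in T0. Later it stood at -2.07, -3.00 and -2.54 with vehicle, -3.89, -4.37, -2.41 and -2.81 with B20 and -2.69, -2.72, -3.67 and -2.80 with nintedanib. B20 replicates 1 and 2 were the lowest of all, and T0 replicate 4 lay within each later group's range. It fell by 1.74 ± 0.48 with B20 (adjusted p = 0.0403), with -1.34 ± 0.48 for nintedanib (0.0883) and -0.90 ± 0.52 for vehicle (0.351). Its dimmer second probe gave -0.53 with B20, and the mean of the probes -1.13, not called (adjusted p = 0.253). The call also ended without T0 replicates 1 or 2, B20 replicates 1, 2 or 4 or nintedanib replicates 2 or 4 (adjusted p = 0.0503 to 0.116), and 6 of 12 other settings ended it (adjusted p = 0.0595 to 0.253).

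Adamts19, a relative of Adamts17, was well above background on T0 replicates 1 to 3 and on none of the other 12 arrays. It thus entered the tests only through the group where it was high, which favoured a call against T0, and its calls are given as a description. Its T0 levels were -4.07, -4.12, -4.55 and -6.22. Those of the later arrays, which are bounds, were -7.55, -6.90 and -6.21 with vehicle, -7.22, -6.95, -7.16 and -6.77 with B20 and -7.28, -7.73, -7.23 and -7.10 with nintedanib. It was at least 1.49-fold higher in T0 than with vehicle (means -4.74 and -6.89, adjusted p = 0.0183), at least 1.66-fold higher than with nintedanib (mean -7.34, adjusted p = 0.00404) and at least 1.4-fold higher than with B20 (mean -7.02, adjusted p = 0.00885). For these folds a later array counts at the lowest signal that was well above background on it, where its own signal is lower. T0 replicate 4, also dim, counts at its own signal, so the T0 mean is itself uncertain. With normexp and the authors' values the vehicle and B20 calls ended (adjusted p = 0.124 to 0.392), at differences of -0.46 and -0.38 for vehicle and -0.28 and -0.32 for B20, and nintedanib stood at -0.61 and -0.48, still called. The vehicle call ended as well without T0 replicates 1 or 2 and without either of vehicle replicates 1 and 2 (adjusted p = 0.0516 to 0.0775) and with only the 2 groups in the fit (adjusted p = 0.159).

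Adamts10 was the only ADAMTS gene called higher. It binds fibrillin-1 microfibrils and stood at -2.52, -2.09, -2.80 and -3.01 in T0. With vehicle it stood at -1.87, -1.47 and -2.31, with B20 at -1.82, -1.88, -1.78 and -2.11 and with nintedanib at -1.30, -1.62, -1.80 and -1.55. Only the nintedanib arrays lay wholly above T0, by 1.04 ± 0.22 (2.05-fold, adjusted p = 0.0116), where vehicle gave 0.72 ± 0.24 (adjusted p = 0.0951) and B20 0.71 ± 0.22 (adjusted p = 0.059). The call held in all 15 leave-outs but ended with median scaling (adjusted p = 0.0982) and without T0 replicates 3 and 4 together (0.74, adjusted p = 0.0531), and the difference was 0.62 with normexp.

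Mmp19, a secreted protease of basement membrane proteins, stood at -2.30, -2.36, -2.77 and -2.52 in T0, a narrow range above all later arrays. Those stood at -3.59, -3.95 and -3.12 with vehicle, -3.45, -4.21, -3.73 and -4.19 with B20 and -4.24, -3.10, -2.89 and -3.14 with nintedanib. With B20 it fell by 1.41 ± 0.29 (2.65-fold, adjusted p = 0.0139), while the differences with vehicle, -1.07 ± 0.32, and nintedanib, -0.86 ± 0.29, were not called (adjusted p = 0.0679 and 0.0728). The B20 call held in all 15 leave-outs and ended with median scaling (adjusted p = 0.0517) and normexp (-0.53, adjusted p = 0.0745), and the authors' values gave -0.62.

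No Timp gene was called against T0. Timp4, an inhibitor known from heart, muscle and fat, stood at 0.13, 0.30, -1.23 and -3.08 in T0. It stood at -3.63, -3.98 and -4.37 with vehicle, -1.36, -2.86, -3.00 and -3.97 with B20 and -3.97, -3.73, -3.27 and -1.15 with nintedanib, and of these vehicle replicate 3 was not well above background. The vehicle arrays lay below every T0 array and differed by -3.02 ± 0.84 (95% interval -4.84 to -1.21, adjusted p = 0.0563). B20 and nintedanib differed by -1.83 ± 0.78 and -2.06 ± 0.78 (adjusted p = 0.156 and 0.102). T0 replicate 4 lay near the later arrays, and without it Timp4 was called lower in all 3 groups, at -3.73, -2.53 and -2.77 (adjusted p = 0.0121, 0.0356 and 0.023). Timp1, the inhibitor most often induced by cytokines, stood at 1.11, 1.93, 2.18 and 3.66 in T0, and later at 2.95, 2.47 and 2.78 with vehicle, 2.59, 2.81, 2.48 and 2.37 with B20 and 2.09, 2.90, 3.24 and 2.54 with nintedanib, all within the T0 range. Timp3, the matrix-bound inhibitor, stood at 2.92, 2.70, 1.88 and 2.16 in T0, 2.25, 1.83 and 2.68 with vehicle, 1.62, 1.82, 2.52 and 1.78 with B20 and 2.15, 2.47, 2.27 and 2.23 with nintedanib. The groups overlapped, and its differences from T0 were -0.16, -0.14 and -0.48 with vehicle, nintedanib and B20 (adjusted p = 0.27 to 0.806).

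**Figure D2:**
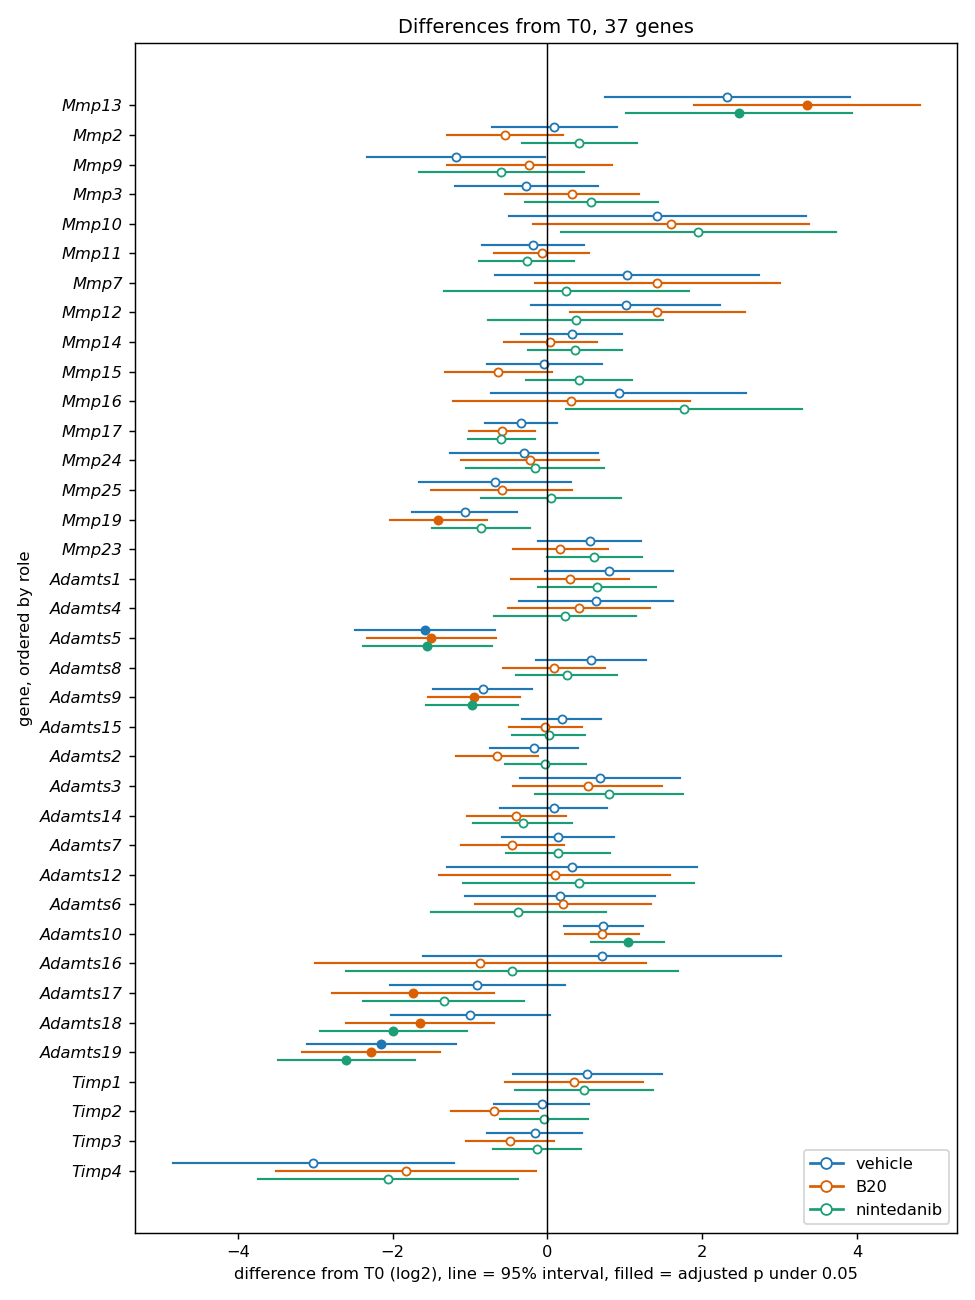
Differences from T0 in log2 of the 37 genes tested, ordered by role, for vehicle, B20 and nintedanib. Lines are 95% intervals of the fit and filled points have an adjusted p under 0.05 over all genes tested. Mmp13 lay to the right in all 3 groups, and Adamts5, Adamts9, Adamts17, Adamts18, Adamts19, Mmp19 and Timp4 to the left.

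Markers of other cell types moved between T0 and the end of treatment on the same arrays. Of all genes tested, 2.13%, 4.62% and 3.73% were called lower than in T0 with vehicle, nintedanib and B20, and 2.80%, 6.82% and 5.79% higher. All 8 adipocyte markers were called lower with vehicle and 7 of 8 with nintedanib and with B20, with medians of -5.28, -3.34 and -3.04, and the ranges of their summed level did not overlap between T0 and any later group. Lpl, lipoprotein lipase, differed by -3.92, -3.16 and -2.79. Of 10 endothelial markers 3, 3 and 7 were called lower with vehicle, nintedanib and B20, and their summed level was 4.43 to 5.28 in T0, 3.95 to 4.65 with vehicle, 3.96 to 4.23 with nintedanib and 4.16 to 4.64 with B20. Of 12 fibroblast markers 0, 2 and 2 were called lower (summed level 8.12 to 8.86 in T0 and 7.38 to 8.56 later), and of 6 pericyte markers 0, 1 and 2. Skeletal muscle markers ranged from 5.44 to 10.93 in T0 and from 3.12 to 10.4 later, and all 8 lay below T0 in each group (medians -3.91, -2.75 and -1.49 with vehicle, nintedanib and B20) with 0 called. Macrophage markers overlapped in all groups (6.16 to 6.77 in T0 and 6.23 to 6.70 later) with 0 of 9 called, and neutrophil markers had a summed level of 6.38 to 6.79 in T0 and 6.53 to 7.55 later, with 1, S100a8, called higher with B20. All markers of these lists except 1 each of adipocytes and muscle and 3 of neutrophils were well above background on all 15 arrays. Their part in the differences of the protease and inhibitor genes was not tested.

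**Figure D3:**
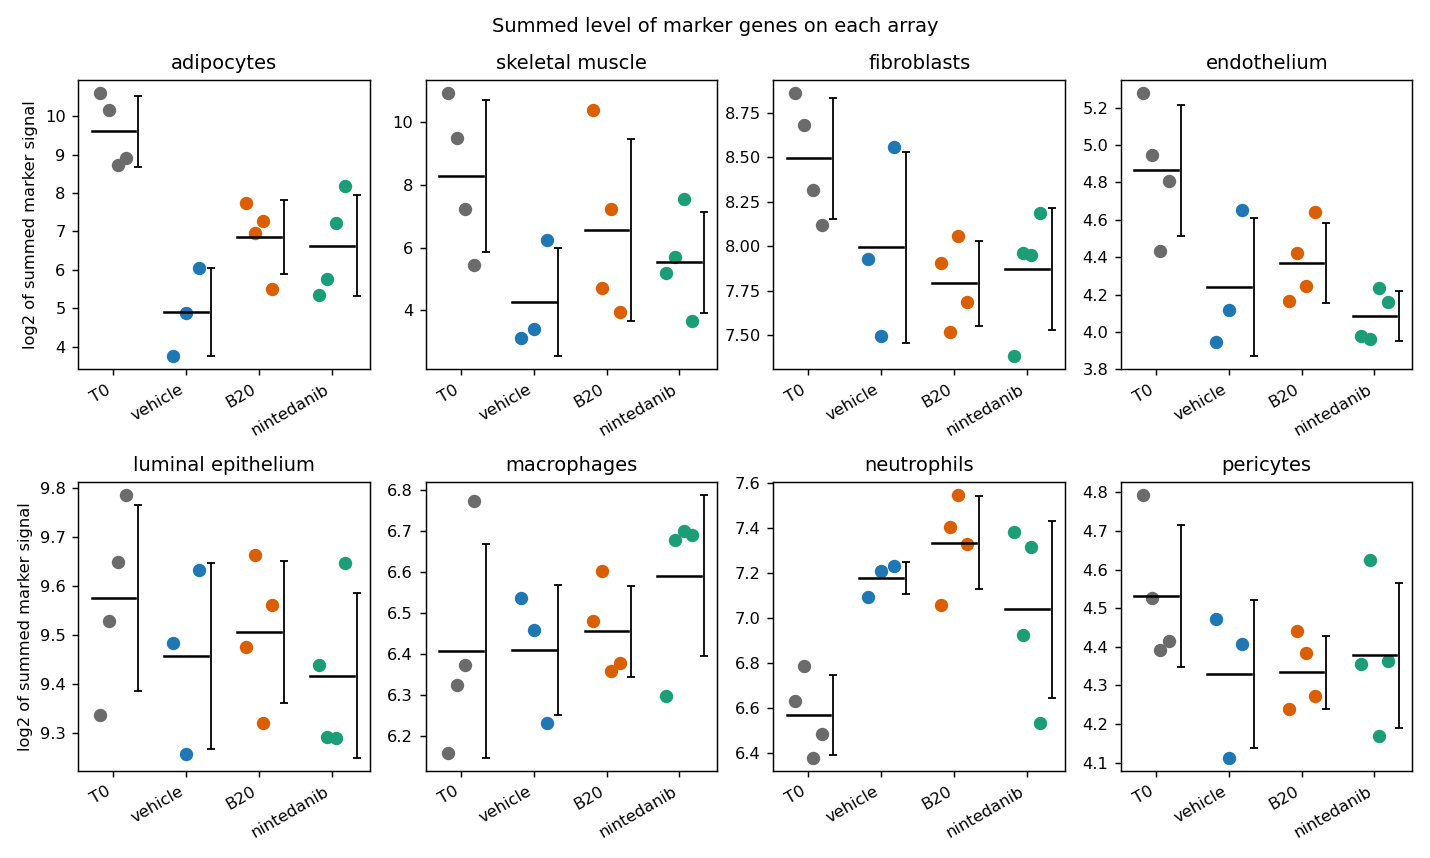
Summed level (log2 of the summed signal of the list, relative to the array's 75th percentile) of 8 marker lists on each of the 15 arrays. Points are arrays, horizontal lines group means and bars SDs. Adipocyte markers lay at 8.74 or more in T0 and at 8.19 or less on all later arrays, whereas luminal epithelial markers stayed between 9.26 and 9.78.

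The number of calls against T0 moved with single arrays, both of T0 and of the later groups. Without vehicle replicate 1 or 2, limma called 0 genes with vehicle (1.86% and 1.83% of all). Without nintedanib replicate 1 or 2 it called 3 with nintedanib (5.74% and 7.78% of all). Without B20 replicate 2 or 4 it called 3 with B20 (4.16% and 3.28% of all). Without T0 replicate 4, limma called 4, 8 and 9 of the 37 genes for vehicle, nintedanib and B20, where 7.48%, 13.4% and 11.8% of all genes were called. Without T0 replicate 3 it called 1, 7 and 7 (6.97%, 14% and 11.3% of all). Without replicate 1 it called 0, 4 and 4 (1.86%, 6.1% and 3.9% of all), and without replicate 2 it called 0, 3 and 4 (2.34%, 6.86% and 4.84%). Without replicates 3 and 4 together it called 10, 9 and 13, where 11.9%, 18% and 15.3% of all genes were called. This setting leaves out a whole T0 slide, so array and slide cannot be told apart in it. Among the additional genes was Adamts14, a procollagen N-proteinase, at -0.61, -1.01 and -1.10 in the 3 groups. With all arrays its differences were 0.08, -0.32 and -0.40, none called, so the vehicle value changed sign with this setting. Its dimmer second probe, well above background on 8 arrays, gave 0.36, 0.15 and 0.37 with all arrays. Timp4 and Timp1 were also called in all 3, Timp4 lower and Timp1 higher by 1.21, 1.17 and 1.04.

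At the end of treatment the drugs were compared with vehicle, which asks what each antiangiogenic agent changed in these genes. No gene of the 3 families was called with nintedanib or with B20, and limma called 0% of all 28025 genes in both comparisons, which share the vehicle arrays. At an unadjusted p under 0.05, nintedanib gave 0 of 37 genes (4.83% of all) and B20 gave 1 of 37, Timp2 (2.70%, against 3.25% of all). Over the 37 genes the median difference was 0.03 with nintedanib and -0.22 with B20, against -0.01 and 0.04 over all genes tested. With B20, 25 of 37 genes lay below vehicle (67.6%, against 44.9% of all), and the B20 and vehicle arrays did not overlap for 6 of 37 (16.2%, against 5.40% of all). These were Timp2, Mmp2, Mmp15, Adamts14 and Mmp17 lower (5 of 37, 13.5%, against 2.59%), and Mmp9 higher (2.70%, against 2.81%). With nintedanib 1 gene did not overlap, Adamts14 (2.70%, against 7.36% of all, and 4.15% in the lower direction). Markers of other cells lay apart as well, with 0 called: 10 of 12 fibroblast and 8 of 10 endothelial markers lay lower with B20 than with vehicle (medians -0.20 and -0.42), and all 8 adipocyte markers higher with each drug (2.29 with nintedanib and 2.37 with B20). All 8 skeletal muscle markers were also higher with each drug (1.49 and 2.31), as were all 9 macrophage markers with nintedanib (0.22). Their part in these differences was not tested. In simulated data for these comparisons, 42% and 26% of genes changed by 1 in log2 were called for nintedanib and B20, and 78% and 74% of those changed by 2, among 28025 genes each. There 50 genes picked at random from all were changed at each size from 1 to 4, which eases the adjusted threshold for each of them. The 37 genes also had a larger median SE (0.43, against 0.29 over all), so these shares do not carry over to them.

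**Figure D4:**
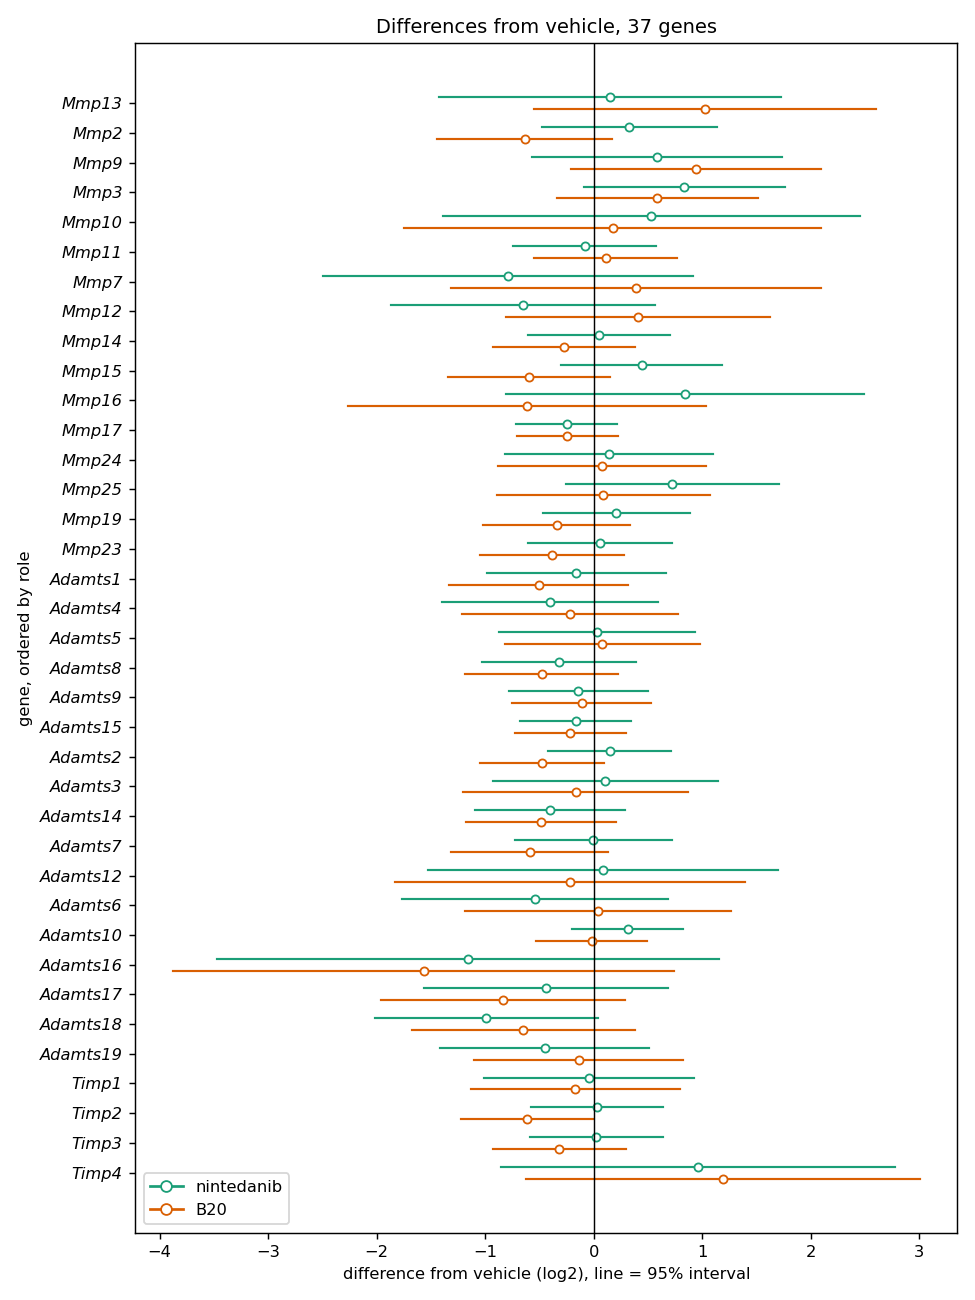
Differences from vehicle in log2 of the 37 genes tested, ordered by role, with nintedanib and B20. Lines are 95% intervals of the fit, and open points have an adjusted p of 0.05 or more over all genes tested, which holds for all of them. The interval of Timp2 with B20 is the only one that leaves out 0.

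Timp2, which inhibits Mmp2 and also holds its precursor to Mmp14 at the cell surface for activation, stood at 5.79, 5.43 and 5.16 with vehicle and 5.04, 4.90, 5.15 and 4.30 with B20. With nintedanib it stood at 5.51, 5.77, 4.92 and 5.77, and T0 had 6.06, 5.57, 5.34 and 5.16. All B20 arrays lay below all vehicle arrays, by a narrow margin between B20 replicate 3 and vehicle replicate 3. The difference was -0.61 ± 0.28 (95% interval -1.22 to -0.0013, adjusted p = 0.998), -0.58 on the 8-array slide and -0.86 on the 3-array slide. Its second probe gave -0.15. With nintedanib Timp2 differed from vehicle by 0.03 ± 0.28.

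Mmp2, the gelatinase A that Timp2 inhibits, stood at 1.33, 0.47 and 0.45 with vehicle, 0.31, 0.39, 0.44 and -0.67 with B20 and 0.27, 1.72, 0.83 and 1.49 with nintedanib. In T0 it stood at 1.12, 0.63, 0.33 and 0.58. B20 replicate 4 was the lowest of the 15 arrays, and the other 3 B20 arrays lay just below the lowest vehicle array. The difference of B20 from vehicle was -0.63 ± 0.37 (95% interval -1.44 to 0.17, adjusted p = 0.998; -0.52 and -1.12 within the slides of 8 and 3), and without B20 replicate 4 it was -0.37. Mmp14, which activates the Mmp2 precursor, stood at -0.68, -0.21, 0.01 and -0.96 in T0, 0.49, -0.60 and -0.34 with vehicle, -0.10, -0.79, -0.22 and -0.57 with B20 and -0.33, 0.26, -0.41 and 0.08 with nintedanib. All 4 groups overlapped, and it differed from vehicle by -0.27 ± 0.30 with B20 and 0.05 ± 0.30 with nintedanib.

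Mmp15, another membrane-type protease, stood at 0.82, 0.12 and 0.35 with vehicle and -0.23, -0.30, 0.00 and -0.13 with B20. With nintedanib it stood at 1.30, 1.14, -0.29 and 1.35, where replicate 3 lay with the B20 arrays and the others above all vehicle arrays. T0 had 0.30, 0.41, 0.94 and 0.23. It differed from vehicle by -0.60 ± 0.34 with B20 (adjusted p = 0.998; -0.65 and -0.48 within the slides) and by 0.45 ± 0.34 with nintedanib (adjusted p = 0.999; 0.25 and 1.00). Mmp9, gelatinase B of neutrophils and macrophages, was well above background on 4 of 15 arrays, T0 replicates 1 and 3, B20 replicate 3 and nintedanib replicate 2. Its levels were -4.60, -5.14, -5.12 and -6.78 in T0, -6.33, -6.69 and -6.75 with vehicle, -5.80, -5.97, -4.91 and -5.91 with B20 and -6.87, -4.67, -6.01 and -6.47 with nintedanib. Since no vehicle array measured it, no fold is given, and the fitted difference of B20 from vehicle had an adjusted p of 0.998.

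**Figure D5:**
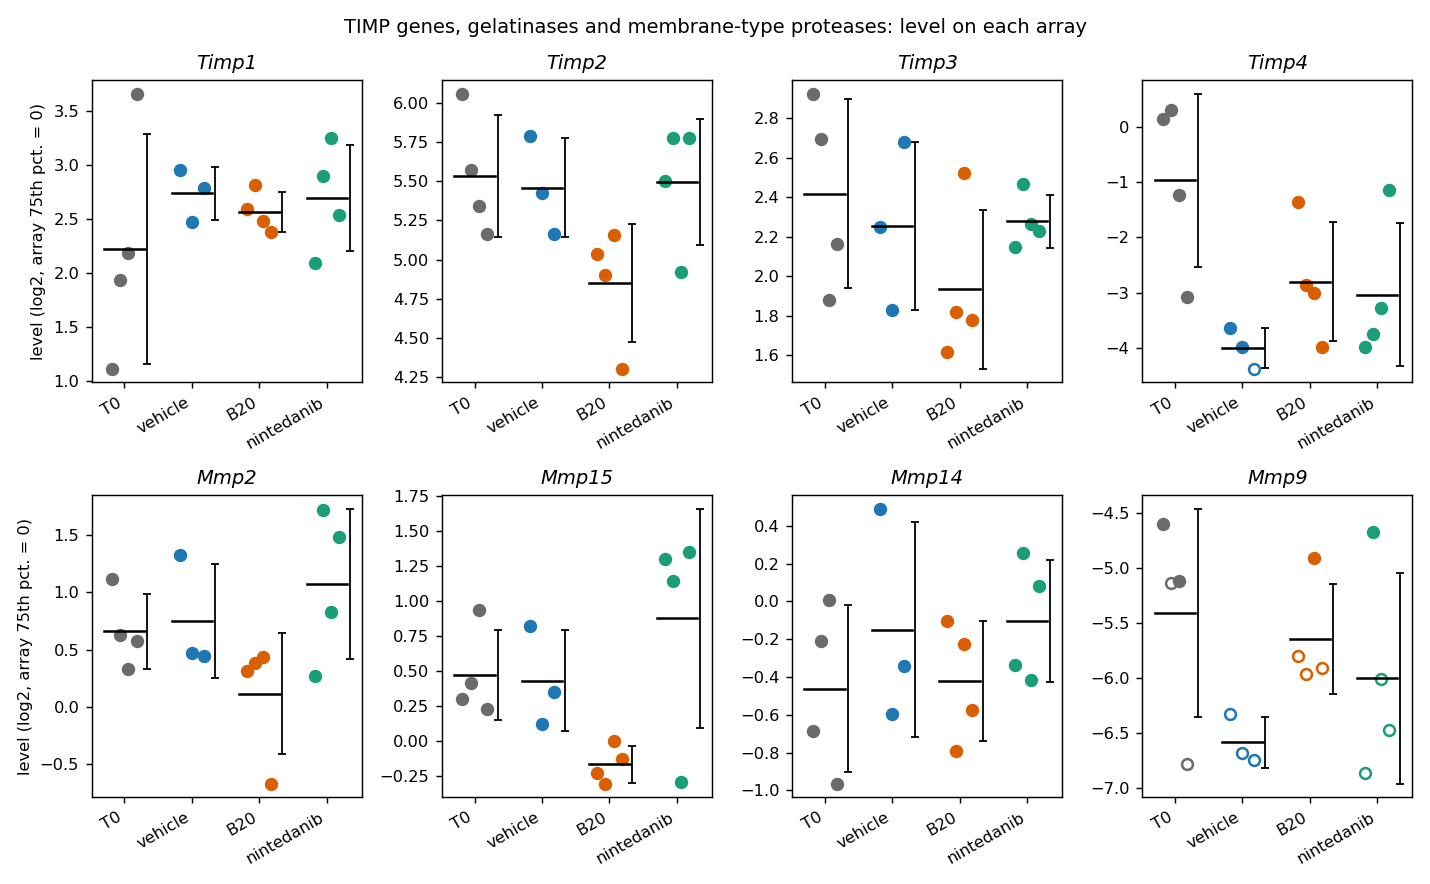
Levels (log2, relative to the array's 75th percentile) of the 4 Timp genes, Mmp2, Mmp15, Mmp14 and Mmp9 on each of the 15 arrays. Points are arrays, open where the probe was not well above background, horizontal lines are group means and bars SDs. B20 arrays lay below vehicle arrays for Timp2, Mmp2 and Mmp15, while nintedanib arrays overlapped vehicle for all 8 genes.

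The procollagen N-proteinases remove the amino end of fibrillar procollagens before fibrils form. Adamts2, the first of them, stood at 2.50, 2.04 and 2.88 with vehicle, 1.96, 2.01, 2.34 and 1.69 with B20 and 2.47, 2.90, 2.21 and 2.90 with nintedanib, and T0 had 2.95, 2.98, 2.42 and 2.24. Its difference with B20 was -0.48 ± 0.26 (adjusted p = 0.998), -0.17 within the slide of 8 and -1.19 within the slide of 3. Its dimmer second probe, well above background on 8 arrays, gave 0.04 with B20 and 1.62 with nintedanib, where the main probe gave 0.15 ± 0.26. Adamts14 stood at -0.51, -0.50 and -0.33 with vehicle, -0.99, -1.01, -1.01 and -0.70 with B20 and -0.92, -0.67, -0.88 and -0.91 with nintedanib, with both drug groups below all vehicle arrays. Its T0 arrays, at 0.13, 0.20, -1.11 and -1.33, lay on both sides. Replicates 1 and 2, on 1 T0 slide, lay above, and replicates 3 and 4, on the other, below. The differences of -0.48 ± 0.32 and -0.40 ± 0.32 did not pass (adjusted p = 0.998 and 0.999), and the second probe gave 0.01 and -0.22.

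Adamts7, which cuts the cartilage oligomeric matrix protein, stood at -2.28, -3.38 and -3.22 with vehicle and -3.85, -3.44, -3.12 and -3.79 with B20. It stood at -3.15, -2.23, -3.72 and -2.74 with nintedanib and -3.21, -3.12, -2.91 and -3.15 in T0. The 4 groups overlapped, and B20 differed from vehicle by -0.59 ± 0.34 (adjusted p = 0.998). With nintedanib the lowest p among the 37 genes belonged to Adamts18, described above, at -0.99 ± 0.48 (adjusted p = 0.999; -1.14 and -0.45 within the slides). Mmp3 followed, with 0.27, -0.02 and 0.79 for vehicle, 0.57, 1.64, 1.16 and 1.37 for nintedanib, 1.82, 0.81, 1.17 and -0.05 for B20 and 0.73, -0.09, 0.41 and 1.43 for T0. It differed by 0.84 ± 0.43 with nintedanib (1.00 and 0.58 within the slides) and 0.59 ± 0.43 with B20, neither of which passed. Mmp25, a membrane-anchored protease of leukocytes, stood at -3.88, -3.77, -4.97 and -4.88 with nintedanib, the first 2 of them well above background, and at -5.39, -5.25 and -4.66 with vehicle, none of them so. T0 had -4.55, -5.04, -3.20 and -4.90 and B20 -5.34, -4.27, -5.00 and -5.42. The means of -4.38 with nintedanib and -5.10 with vehicle did not differ past the threshold (adjusted p = 0.999), and no fold is given. Adamts10 differed by 0.32 ± 0.24 (adjusted p = 0.999).

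Set against each other, the drugs gave 0 of 37 called genes and 0% of all, with 4 of 37 genes at an unadjusted p under 0.05 (10.8%, against 9.38% of all) and 24 of 37 higher with nintedanib (64.9%, against 44.7%). The median was 0.25 over the 37 genes and -0.04 over all. Of the fibroblast markers 9 of 12 and of the endothelial markers 8 of 10 were also higher with nintedanib (medians 0.22 and 0.49), and all 8 muscle markers lower (-1.17), with 0 called. The 4 genes were all higher with nintedanib than with B20. Mmp15 differed by 1.04 ± 0.32 (2.06-fold, 95% interval 0.35 to 1.73, adjusted p = 0.517 with limma), and Mmp2 by 0.96 ± 0.35 (95% interval 0.21 to 1.71, adjusted p = 0.517). Within the slides of 8 and 3 arrays Mmp15 differed by 0.89 and 1.48 and Mmp2 by 0.56 and 2.16. Adamts2 and Timp2 differed by 0.62 ± 0.24 and 0.65 ± 0.26 (adjusted p = 0.523 for both), and their second probes by 1.57 and 0.35. Nintedanib and B20 arrays overlapped for each of the 4 genes, as for all 37 (5.73% of all genes did not overlap).

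Mmp16, a further membrane-type protease, was well above background on 4 arrays. It stood at -2.57, -5.29, -5.13 and -5.61 with nintedanib, the first 2 of them measured, and at -6.19, -6.76, -4.90 and -6.59 with B20, none measured. Vehicle had -4.90, -6.47 and -5.12 and T0 -7.02, -7.22, -4.79 and -6.65, with 1 measured array each. Nintedanib replicate 1 was the highest of the 15 arrays. The means of -4.65 with nintedanib and -6.11 with B20 did not differ past the threshold (adjusted p = 0.548). No fold is given, since no B20 array and only 2 nintedanib arrays measured it. Mmp12 differed between nintedanib and B20 by -1.06 ± 0.52 (adjusted p = 0.551).

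Genes that work with these enzymes were taken from 7 lists, and in the 3 comparisons among vehicle, B20 and nintedanib 0 of their members were called. For the calls against T0 in these lists, the shares over all genes tested are 2.13%, 4.62% and 3.73% lower with vehicle, nintedanib and B20. In the higher direction they are 2.80%, 6.82% and 5.79%. Against T0, the ADAMTS-like proteins, which lack the protease domain and bind matrix, had 2 called higher and 1 lower of 5 tested with vehicle and with nintedanib, and 1 each with B20. Adamtsl2 differed by 1.24 ± 0.26 with vehicle and 1.44 ± 0.24 with nintedanib (adjusted p = 0.019 and 0.00474). Papln, papilin, rose in all 3 groups (1.52 ± 0.33, 1.65 ± 0.31 and 1.43 ± 0.31 with vehicle, nintedanib and B20), and Adamtsl4 fell in all 3 (-0.98 ± 0.25, -1.20 ± 0.24 and -1.28 ± 0.24). Of 15 basement membrane genes 1, 3 and 5 were called lower and 0 higher. They were Lamc3 with vehicle (-2.43 ± 0.57), Nid1, Nid2 and Hspg2 with nintedanib (-1.58 ± 0.35, -1.55 ± 0.34 and -1.60 ± 0.36), and with B20 these 3 (-1.82 ± 0.35, -2.05 ± 0.34 and -1.37 ± 0.36), Lama2 (-1.24 ± 0.32) and Lamc3 (-1.89 ± 0.52). Nid1 and Nid2 encode nidogens and Hspg2 perlecan, which link the laminin and collagen IV networks. The endothelial, adipocyte, fibroblast, pericyte and muscle markers given above also lay mostly lower than in T0 on the same arrays. Their part in the differences of these genes was not tested.

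Of 6 tested hyalectan and link protein genes, which encode the proteoglycans that Adamts5 and its relatives cut and the proteins that tie them to hyaluronan, 1 was called lower with nintedanib and with B20, the aggrecan gene Acan (-1.15 ± 0.29 and -1.24 ± 0.29). Among 12 activators, binders and clearance receptors of Mmps, A2m, a plasma inhibitor that traps proteases, rose in all 3 groups (3.35 ± 0.74, 2.73 ± 0.68 and 2.31 ± 0.68 with vehicle, nintedanib and B20, adjusted p = 0.023, 0.0229 and 0.0497). Pcsk6, a proprotein convertase, fell with B20 (-1.36 ± 0.34). Of 8 tested genes of the plasminogen system, Serpine2, an inhibitor of plasminogen activators, rose with nintedanib (1.36 ± 0.39, adjusted p = 0.0384). Of 12 ADAM proteases, Adam10, a sheddase of cell surface proteins, fell with nintedanib (-0.64 ± 0.16) and Adam23 with B20 (-1.12 ± 0.26). None of the 3 tested astacin proteases was called, the lowest p against T0 belonging to Tll1 (0.77 ± 0.31 with B20, adjusted p = 0.137). In the drug comparisons the lowest p of these lists was that of Adam10, at -0.67 ± 0.16 for nintedanib against B20 and -0.56 ± 0.17 against vehicle (adjusted p = 0.517 and 0.803), where the nintedanib arrays lay below every array of either group.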

How the data were processed

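Total RNA of 15 mammary tumour samples was labelled with Cy3 and hybridised to 1-colour arrays, 1 per sample. Per the file headers, arrays of design 028005 were read with Agilent Feature Extraction 10.7.3.1, and the deposited spot intensity is its processed signal, background-subtracted within each array and not normalised between arrays. Per the file headers, each spot also carries flags, 0 or 1, that mark outliers and signal well above background. The authors' deposited table of log2 values comes with no stated method. It correlated at 0.9996 or more over probes with values made here by normexp (offset 50) and quantile normalisation, with column medians of 6.62 to 6.63, so its scale is log2, a higher value is brighter and no gene was centred. Control and outlier spots were left out, spots of 1 probe averaged, and the array's 75th percentile subtracted. In 82 cases over all 55681 probes an outlier value was filled in, in 0 for the 44 genes. Probes were named by transcript identifiers through RefSeq (GRCm38.p6): 26056 had a symbol and 29625 none. The brightest probe stood for a gene, and genes well above background on at least 3 of 15 arrays were tested. Depth here means brightness against background: median raw signals were 55 to 102 against backgrounds of 19 to 26, no spot was saturated, and the number of arrays limits the precision, with a median SE of 0.27 to 0.29 in log2 over all genes tested and 0.40 to 0.43 over the 37 genes. Tests used limma 3.58.1 in R 4.3.3 (lmFit and eBayes, 4 group means over 15 arrays, two-sided, Benjamini-Hochberg over 28025 genes and transcripts, called at an adjusted p under 0.05), and were tested on simulated data. Alternatives were normexp, quantile and median scaling, the authors' values, other filters, the mean of probes, slide and replicate blocks, 2-group fits, array weights and leaving out arrays. Normexp used the median spot signal in place of the mean signal that had been planned. The members and lists were chosen with earlier results of these data known. Values for each array are given for the 6 genes with the lowest p per comparison, called genes, the Timp genes, Mmp2, Mmp9 and Mmp14, and other genes are named only if called or lowest in p in their list. Promoters came from the RefSeq table.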

Additional observations from a re-analysis of the deposited data

Results flagged for a closer look

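Among 111 groups of 4 arrays looked at, 12 had an array far from the other 3, where chance gives about 5%. In each the gap to the nearest array took most of the group's range (Dixon's test at the 95% level). Nintedanib held 7 of them. In nintedanib replicate 1, Adamts12 stood at -1.94, with the other 3 between -3.85 and -4.05, Mmp16 at -2.57, with the other 3 between -5.13 and -5.61, and Adamts9 at -2.54, with the other 3 between -1.55 and -1.51. In nintedanib replicate 3, Adamts17 stood at -3.67, with the other 3 between -2.80 and -2.69, Mmp11, the stromelysin 3 of tumour stroma, at -0.19, with the other 3 between 0.47 and 0.53, and Mmp15 at -0.29, with the other 3 between 1.14 and 1.35. Adamts14 stood at -0.67, with the other 3 between -0.88 and -0.92, in nintedanib replicate 2. For B20, Adamts14 stood at -0.70, with the other 3 between -0.99 and -1.01, and Mmp2 at -0.67, with the other 3 between 0.31 and 0.44, both in replicate 4. Mmp9 in B20 replicate 3 stood at -4.91, with the other 3 between -5.80 and -5.97, and was well above background there and on no other B20 array. Of the T0 arrays, Adamts15 stood at 0.39, with the other 3 between 1.00 and 1.10, in replicate 4, and Adamts16 at -1.32, with the other 3 between -5.53 and -5.86, in replicate 3, the only T0 array on which it was well above background. That array had 84.1% of probes well above background. Without nintedanib replicate 3 the difference of Mmp15 between nintedanib and B20 was 1.43, against 1.04 with all arrays.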

How the results depend on the processing

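Among vehicle, B20 and nintedanib, limma called 0 of the 37 genes in each of the 3 comparisons under all 12 settings and all 15 leave-outs. Over all genes it then called up to 12 for nintedanib against vehicle (array weights), 0 for B20 against vehicle and up to 1 for nintedanib against B20. Against T0 it called 2, 6 and 7 genes of the 37 for vehicle, nintedanib and B20. Leaving out single arrays gave 0 to 4, 3 to 8 and 3 to 9. Array weights gave 11, 13 and 15, with 18.8%, 28.3% and 21.6% of all genes called. Leaving out T0 replicates 3 and 4 together, chosen after seeing the data, gave 10, 9 and 13 (11.9%, 18% and 15.3% of all). Only the 2 groups compared gave 0, 3 and 3 (0.0607%, 5.2% and 3.52%), normexp 1, 6 and 3 (3.4%, 9.54% and 5.73%), and median scaling 1, 4 and 4 (2.43%, 4.87% and 4.23%). No filter on dim probes gave 1, 5 and 4 (2.41%, 6.6% and 4.92%), and the slide as a random block 1, 4 and 3 (3.12%, 7.22% and 5.5%). The authors' values gave 1, 6 and 6 (4.93%, 12.1% and 9.6%) and the mean of a gene's probes 1, 5 and 5 (4.61%, 9.95% and 8.17%). Of 21 pairs of samples with the same replicate number, 5 had a correlation of deviations over 0.1 (from -0.25 to 0.38). They were not set against pairs with other numbers, so whether the numbers pair the samples was not settled. The fit with the replicate block gave 2, 4 and 4 (4.37%, 9.41% and 7.42% of all). Over all genes the calls against T0 ranged from 17 to 5274 for vehicle (1382), 1366 to 7919 for nintedanib (3208) and 986 to 6059 for B20 (2668) under these settings, and from 480 to 2097, 1610 to 3913 and 919 to 3305 when single arrays were left out. Of the differences against T0, 1 changed sign and was then called: Adamts14 with vehicle, 0.08 with all arrays and -0.61 without T0 replicates 3 and 4 (adjusted p = 0.0354). No gene called with all arrays changed sign. Fewer arrays enter the 2-group fits and leave-outs, and the cause of the changes was not tested. Signal over background limits Adamts6, Adamts16, Adamts19, Mmp9, Mmp16 and Mmp25, each well above background on 3 to 6 arrays.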
